A study of Mus musculus with 18 samples.

Results

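This report covers 7 genes of the Toll-like receptor (TLR) system other than Tlr4, the receptor of LPS itself: the receptors Tlr1, Tlr2, Tlr3, Tlr6, Tlr7 and Tlr9, and Unc93b1, which encodes the protein that escorts nucleic acid-sensing TLRs. They were taken by name from the 16545 genes of an FPKM table (mapped fragments scaled to transcript length in kilobases and to library size) for purified splenic B cells, and all 7 had a row. All 18 libraries were used, from 2 genotypes at 0 h, 24 h and 48 h of culture with LPS (D0, D1 and D2), with 3 libraries in each of 6 groups and a mouse for each replicate. The labels do not say whether libraries with the same number at different times came from the same mouse, and the tests over time treat them as separate. LPS, or lipopolysaccharide, is an outer membrane component of Gram-negative bacteria that activates B cells through TLR4. B-CKO cells came from Zbtb24 loxp/loxp mice with 1 Cre allele active in B-lineage cells, which removes exon 2 of Zbtb24, the exon with the translation start. Zbtb24 encodes a zinc finger protein mutated in a form of the immunodeficiency, centromeric instability and facial anomalies syndrome. Control (CON) mice, by the methods, were littermates with the same Cre allele and intact Zbtb24 unless otherwise indicated. The sample titles do not give the Cre allele, so a Cre allele matched between the genotypes is not established here. The floxed allele was kept on C57BL/6. The age and sex of these mice and the dose of LPS in these cultures are not given in the sources used here.

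TLRs are membrane receptors that recognise conserved microbial molecules and signal through the adaptors MyD88 and TRIF to NF-kB and interferon regulatory factors. TLR2 works at the cell surface as a partner of TLR1, for triacylated lipopeptides, or of TLR6, for diacylated ones. TLR3, TLR7 and TLR9 sit in endosomes and sense double-stranded RNA, single-stranded RNA and DNA with unmethylated CpG, and UNC93B1 carries them there from the endoplasmic reticulum, where TLR9 and TLR7 are known to compete for it. B cells use these receptors beside their antigen receptor, marginal zone and B1 cells most readily, and TLR7 and TLR9 are known for opposing roles in autoantibody responses.

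The genomic positions of the members, from RefSeq on GRCm38.p6, place Tlr1 (chr5:64924680-64933600) and Tlr6 (chr5:64953092-64970942) side by side on the minus strand. Tlr2 lies at chr3:83836272-83841824, Tlr3 at chr8:45395665-45411075, Tlr7 at chrX:167303380-167330574, Tlr9 at chr9:106222598-106226876 and Unc93b1 at chr19:3935158-3949340. The coding sequences of Tlr1 (2385 bases) and Tlr6 (2418 bases) share 9 identical stretches of at least 30 bases, 873 bases in all. The longest, of 229 bases, exceeds the 150-base reads and is shown because read pairs that fall inside it cannot be assigned to either gene by sequence. It runs from chr5:64925537-64925765 in Tlr1 and from chr5:64953828-64954056 in Tlr6 (GENCODE, GRCm38, minus strand, coding sequence of both genes).
Tlr1 and Tlr6, shared: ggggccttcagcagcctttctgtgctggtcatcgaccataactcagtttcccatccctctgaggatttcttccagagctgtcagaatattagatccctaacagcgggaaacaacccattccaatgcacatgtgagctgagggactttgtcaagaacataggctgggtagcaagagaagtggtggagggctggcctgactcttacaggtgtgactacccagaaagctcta
Of all 150-base windows of the Tlr1 coding sequence, 6.22% are also found in Tlr6. How RSEM split shared fragments was not tested, and since Tlr1 stood at 23.0 times the FPKM of Tlr6 in CON D0, even a small share of Tlr1 fragments assigned to Tlr6 would bear on the level of Tlr6. The exons of Tlr3 overlap those of an antisense gene, Gm45542, by 381 bases, and the strand setting of the counting is not given in the sources used here.

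RefSeq promoters (GRCm38.p6) were matched for 5 of the 7 members, 7 in all, with 2 each for Tlr1 and Tlr6 and none for Tlr7 and Unc93b1. Each window holds the 250 bases before the start that its entry uses, which for a gene with several starts can lie inside the gene. The windows of Tlr2 and Tlr3, the first of Tlr6 and the second of Tlr1 hold 49 to 211 bases of exons of the same gene and are not shown. The other 3, with at most 5 such bases, are shown for Tlr9, which fell from D1 to D2 in both genotypes, and for the neighbours Tlr1 and Tlr6, which differ in level. Capitals mark matches on either strand to 4 short motifs, chosen with these sequences in view: the octamer ATGCAAAT of B cell OCT factors, the NF-kB-like GGANTTTCC, the PU.1-like GAGGAAGT and the interferon response-like GAAANNGAA.
Tlr9 (chr9:106222348-106222597, plus strand): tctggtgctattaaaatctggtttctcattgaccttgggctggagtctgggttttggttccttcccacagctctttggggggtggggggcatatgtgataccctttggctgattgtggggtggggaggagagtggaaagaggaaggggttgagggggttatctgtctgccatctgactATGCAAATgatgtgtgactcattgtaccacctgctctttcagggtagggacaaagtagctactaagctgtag
Tlr1, first promoter (chr5:64933559-64933808, minus strand): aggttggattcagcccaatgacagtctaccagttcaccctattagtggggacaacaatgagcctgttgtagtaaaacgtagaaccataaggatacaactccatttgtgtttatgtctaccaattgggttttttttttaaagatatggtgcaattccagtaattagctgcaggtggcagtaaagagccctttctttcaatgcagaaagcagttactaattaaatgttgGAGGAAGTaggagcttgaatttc
Tlr6, second promoter (chr5:64959167-64959416, minus strand): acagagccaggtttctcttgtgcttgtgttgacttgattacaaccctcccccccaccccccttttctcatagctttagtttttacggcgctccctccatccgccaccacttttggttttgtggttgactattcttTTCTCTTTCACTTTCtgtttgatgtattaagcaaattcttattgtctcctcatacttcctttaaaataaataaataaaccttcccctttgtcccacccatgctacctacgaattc
The Tlr9 window held the octamer from position -72 to -65 relative to the start, a motif present in the same window of 1.6% of 32851 promoters. It had 50.4% G or C and no CpG dinucleotide, the sequence that TLR9 senses in DNA, against a median over all promoters of 52.4% and 6. The first Tlr1 window held the PU.1-like motif from -23 to -16 (2.44% of promoters), and the second held none of the 4. The second Tlr6 window held 2 overlapping interferon response-like matches (7.13% of promoters have at least 1), and the first held none. Of the windows not shown, that of Tlr3 held an NF-kB-like match (1.07% of promoters) and that of Tlr2 none. These matches describe letters only, and no binding was measured.

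Relative depths were estimated from the steps of values worth about 1 fragment (121 genes, 95.1% of 348 such values within 0.15 of 1). They lay between 0.89 and 1.08, at 0.89 to 0.96 in the D0 libraries and 0.96 to 1.08 at D1 and D2. The genes were picked for values close together across libraries, so this agreement is partly selected and larger depth differences could be understated. The absolute depth is not given. Replicates correlated at Pearson's r of 0.986 to 0.999 across genes. The D0 libraries varied more, with a median SD of 0.17 (CON) and 0.16 (B-CKO) on the log2 scale, against 0.05 to 0.08 at D1 and D2. Replicate 1 of both genotypes stood apart at D0, for instance for Ccr7, a chemokine receptor, which was at 209 and 252 FPKM in these libraries and at 598 to 669 in the other D0 libraries. Zbtb24, the targeted gene, was lower in every B-CKO library than in every CON library of the same time, at 10.5 to 14.3 against 37.05 to 49.6 FPKM at D0, 10.4 to 11.7 against 15.7 to 18.8 at D1 and 9.23 to 11.3 against 13.4 to 17.1 at D2. B cell markers were high in all libraries. In CON D0, T cell markers other than Lck had means of 0.467 (Cd4) to 1.98 FPKM (Zap70), with Lck at 20.7, and myeloid markers had means of 0.03 (Fcgr1) to 5.12 (Cd68), with Mpeg1 at 10.6 and Csf1r at 0.52. How much of the low values of Tlr2, Tlr3 and Tlr6 comes from other cells was not tested. In such bulk samples, fewer cells of a type and less RNA per cell cannot be told apart.

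Before LPS, the 7 genes spanned more than 2 orders of magnitude in CON cells. Unc93b1 was the highest at 409 ± 71.4 FPKM (mean ± SD, n = 3), above 99.0% of all genes in the table. Tlr1 at 60.6 ± 11.9 was the most abundant receptor and Tlr9 at 41.1 ± 4.72 the next, above 92.7% and 88.6% of genes. Tlr7 stood at 11.5 ± 0.91. Tlr6 (2.72 ± 0.573), Tlr2 (2.64 ± 0.994) and Tlr3 (1.65 ± 0.645) were low, and the libraries of Tlr6 and Tlr2 and those of Tlr2 and Tlr3 overlapped, so the order among these neighbours lies within their spread. FPKM are per length, so these levels can be set side by side. B-CKO cells at D0 had the same order of means, with the same pairs of neighbours overlapping.

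**Figure D1:**
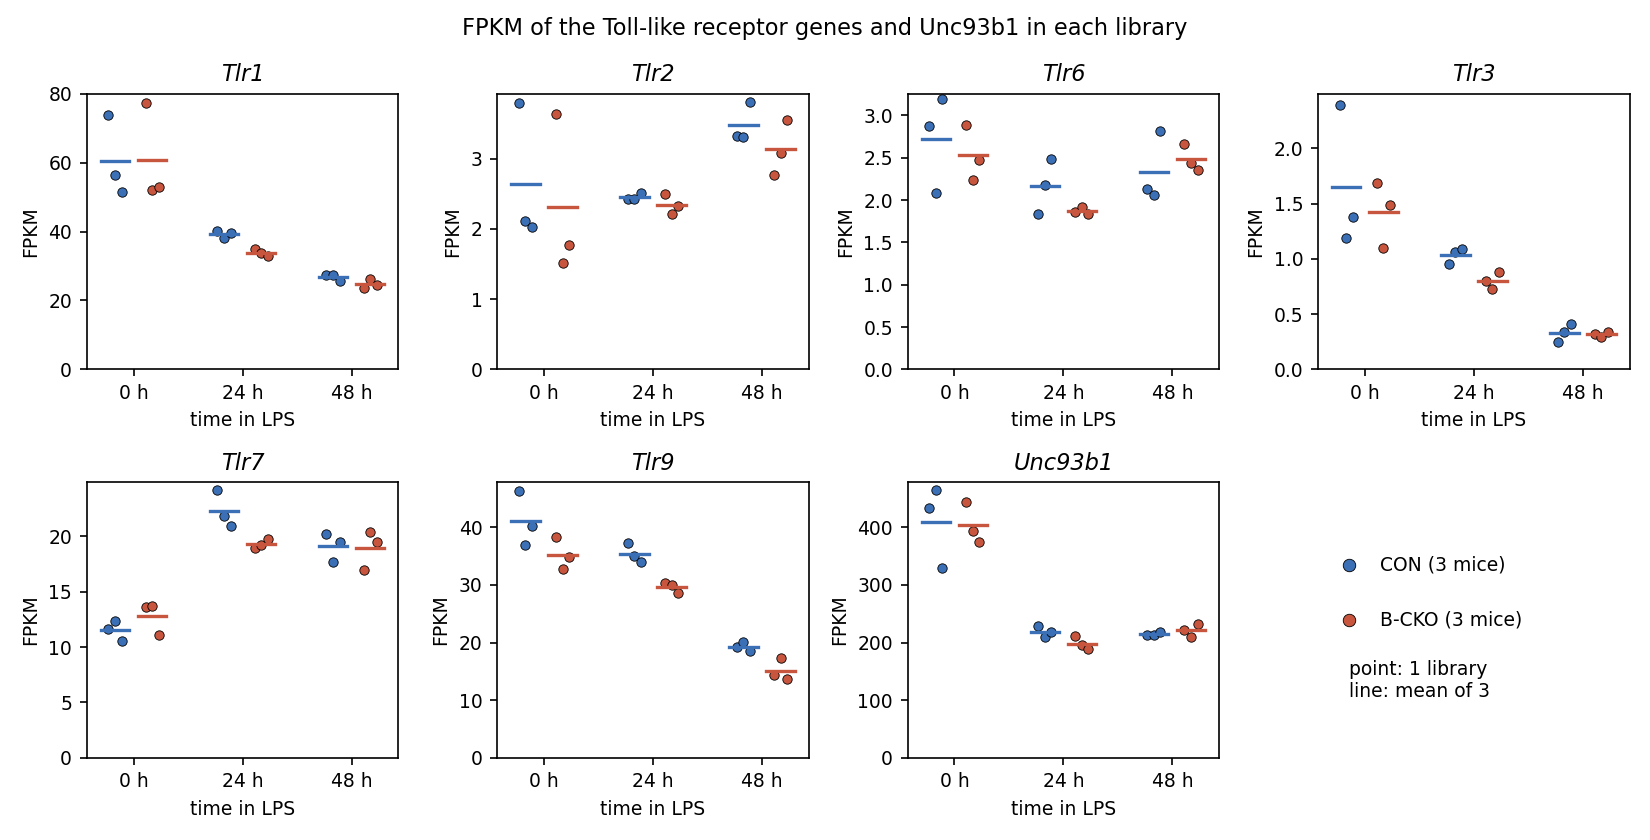
FPKM (vertical axes, linear from 0, a scale for each gene) of each member in each library against time in LPS, with CON in blue and B-CKO in red; points are libraries and lines the means of 3. Tlr1, Tlr3 and Tlr9 end lowest at 48 h, Tlr7 is higher at 24 h and 48 h than at 0 h, and Unc93b1 is lower from 24 h on.

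Among the endosomal receptors, Tlr7 rose with LPS and Tlr9 and Tlr3 fell. Tlr7 was at 11.6, 12.4 and 10.5 FPKM in CON D0, at 24.2, 21.8 and 20.9 in CON D1 and at 20.2, 17.7 and 19.5 in CON D2. All D1 libraries lay above all D0 libraries, with a mean of 22.3 ± 1.71. The rise to D1 was 0.90 ± 0.09 on the log2(FPKM + 1) scale (log2 change ± SE, adjusted p = 0.000254 by limma). From D1 to D2 Tlr7 fell by 0.21 in CON (adjusted p = 0.0461), a call that was lost without any of 4 single libraries (adjusted p between 0.0903 and 0.129) and when libraries were scaled by the median ratio (adjusted p = 0.0754), weighted by group (adjusted p = 0.0512) or fitted all together (adjusted p = 0.103). In B-CKO cells Tlr7 was at 13.6, 13.7 and 11.1 FPKM at D0, at 19.0, 19.2 and 19.8 at D1 and at 16.97, 20.4 and 19.5 at D2. It rose by 0.56 ± 0.09 to D1 (adjusted p = 0.00202), and the D2 libraries did not part from those of D1 (change of -0.03, adjusted p = 0.781).

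Tlr9 kept most of its level to D1 and then fell. CON libraries stood at 46.2, 36.9 and 40.2 FPKM at D0 and at 37.3, 35.0 and 33.9 at D1, and these overlapped (change of -0.21 ± 0.09, adjusted p = 0.104, and -0.28 and 0.0463 without replicate 2 of CON D0). At D2 they were at 19.2, 20.1 and 18.4, below every earlier library, with a fall from D1 of 0.84 on the log2 scale (SE 0.05, adjusted p = 5.07e-05). B-CKO libraries were at 38.3, 32.7 and 34.8 FPKM at D0, at 30.4, 29.9 and 28.6 at D1 and at 14.4, 17.4 and 13.6 at D2. Here the change to D1 passed the test (-0.24 ± 0.07, adjusted p = 0.0251), though not without any 1 of the D1 libraries (adjusted p of 0.0606 to 0.0939), and the step to D2 was larger (-0.93 ± 0.08, adjusted p = 0.000179).

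Tlr3, the double-stranded RNA receptor, was low throughout and fell further. It was at 2.39, 1.19 and 1.38 FPKM in CON D0, at 0.95, 1.06 and 1.09 in CON D1 and at 0.25, 0.34 and 0.41 in CON D2. All CON D1 libraries lay below all CON D0 libraries, a change of -0.36 ± 0.17 that did not pass the test (adjusted p = 0.116) except in a single fit of all libraries (adjusted p = 0.0236), and the second day passed (-0.61 ± 0.06, adjusted p = 0.000235). In B-CKO it went from 1.69, 1.10 and 1.49 FPKM through 0.80, 0.73 and 0.88 to 0.32, 0.29 and 0.34, and both steps passed (-0.42, adjusted p = 0.0116, and -0.45, adjusted p = 0.000191). At these levels the added 1 FPKM makes the log2 change smaller than the ratio of the means.

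Unc93b1 fell on the first day and then levelled off. CON libraries were at 434, 465 and 329 FPKM at D0, at 228, 211 and 218 at D1 and at 214, 213 and 218 at D2. The change to D1 was -0.89 ± 0.13 (adjusted p = 0.00156) and that from D1 to D2 was -0.02 (adjusted p = 0.645). B-CKO libraries were at 445, 394 and 375 FPKM at D0, at 211, 195 and 189 at D1 and at 222, 210.0 and 232 at D2, a fall of 1.02 on the log2 scale to D1 (adjusted p = 7.74e-05) and a difference of 0.16 afterwards that did not pass the test (adjusted p = 0.0549) with all genes and did among genes averaging 1 FPKM or more (adjusted p = 0.0265). Of the 4 endosomal genes, then, 1 rose and 3 fell between D0 and D2 in both genotypes. Of all genes tested, 26.5% rose and 30.3% fell in CON and 27% and 30.7% in B-CKO.

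The ratio of Tlr9 to Tlr7 shifted over the culture. In CON it was 3.59 ± 0.53 at D0 (SD, n = 3), 1.59 ± 0.0432 at D1 and 1.01 ± 0.107 at D2, with no overlap between times. In B-CKO it was 2.78 ± 0.374, 1.54 ± 0.0811 and 0.799 ± 0.087. At D2 the libraries of Tlr9 and Tlr7 overlapped in both genotypes, where Tlr9 had been 3.57 times Tlr7 by the means of CON D0. The level of Unc93b1 over the summed levels of Tlr3, Tlr7 and Tlr9 went from 7.58 ± 1.49 in CON D0 to 3.73 ± 0.144 at D1 and 5.55 ± 0.151 at D2, lowest at D1 in B-CKO also (8.17 ± 0.225, 3.98 ± 0.193 and 6.49 ± 0.842). These ratios are descriptions of RNA within a library and were not tested.

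**Figure D2:**
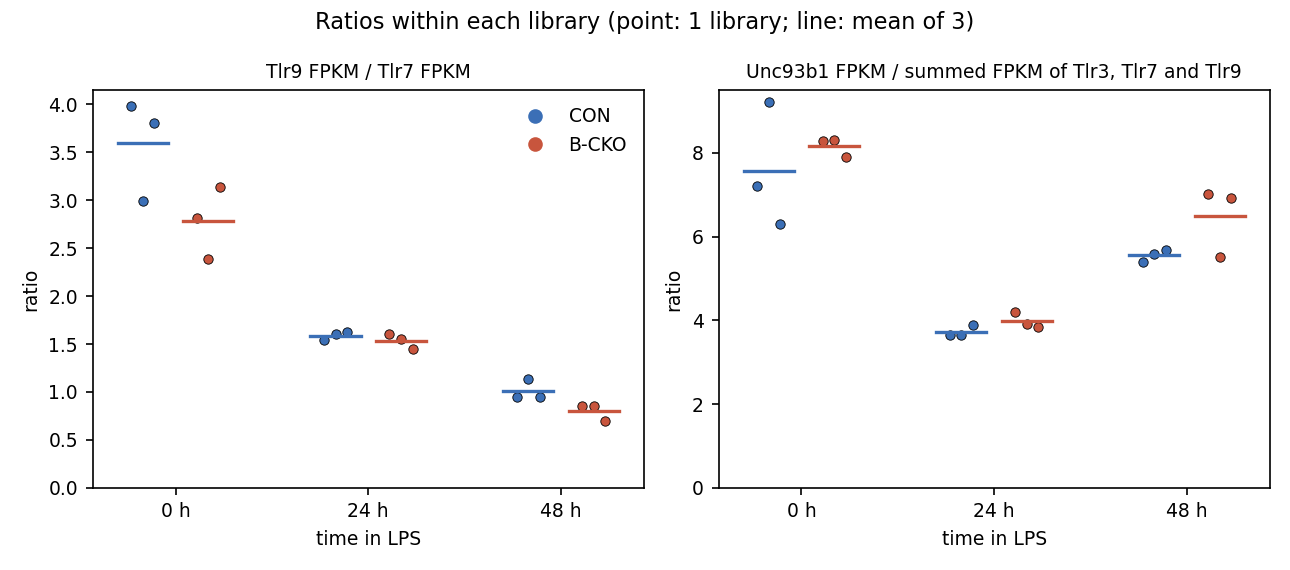
Ratio of Tlr9 to Tlr7 FPKM (left) and of Unc93b1 FPKM to the summed FPKM of Tlr3, Tlr7 and Tlr9 (right) in each library against time in LPS, CON in blue and B-CKO in red, with lines for the means of 3. The left ratio falls from 3.59 to 1.01 in CON and from 2.78 to 0.799 in B-CKO, and the right ratio is lowest at 24 h in both.

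Of the surface receptors, Tlr1 fell at each step while Tlr2 and Tlr6 stayed low. Tlr1 was at 74.0, 56.3 and 51.4 FPKM in CON D0, at 40.2, 38.1 and 39.5 in CON D1 and at 27.5, 27.4 and 25.5 in CON D2, with no overlap between times. It fell by 0.60 (SE 0.13, adjusted p = 0.00907) and then by 0.53 (SE 0.04, adjusted p = 0.000126) on the log2 scale. In B-CKO it was at 77.4, 52.0 and 53.0 FPKM at D0, at 35.0, 33.9 and 32.9 at D1 and at 23.6, 26.1 and 24.4 at D2. Both steps passed the test there as well (-0.80 ± 0.15, adjusted p = 0.00422, and -0.44 ± 0.05, adjusted p = 0.000354).

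Tlr2, the shared partner of TLR1 and TLR6, moved the other way on the second day. CON libraries were at 3.79, 2.11 and 2.03 FPKM at D0, at 2.42, 2.43 and 2.51 at D1 and at 3.32, 3.31 and 3.81 at D2, and the D2 values lay above all D1 values (0.37 ± 0.07, adjusted p = 0.00457, and 0.20 in a single fit of all libraries). B-CKO libraries were at 3.64, 1.51 and 1.77 FPKM at D0, at 2.49, 2.21 and 2.32 at D1 and at 2.76, 3.08 and 3.55 at D2. That rise (0.30 ± 0.09, adjusted p = 0.0308) was lost with the replicate number as a block (adjusted p = 0.0646), after rescaling to TPM (adjusted p = 0.0578), in a single fit of all libraries (adjusted p = 0.302) and, with 5 of the 6 libraries, when that library was left out (adjusted p of 0.0557 to 0.102). The change from D0 rested on replicate 1 at D0, the highest of its group in both genotypes. Without the D0 replicate 1 libraries, Tlr2 was higher at D2 than at D0 in CON (0.54, adjusted p = 0.00588, against 0.33 and 0.20 with all libraries) and in B-CKO (0.64, adjusted p = 0.00685, against 0.37 and 0.238). Without them it was also higher at D1 than at D0 in B-CKO (0.34, adjusted p = 0.0186, against 0.07 and 0.814).

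Tlr6 lay between 1.83 and 3.19 FPKM in all 18 libraries. In CON no step passed the test (-0.22, adjusted p = 0.25, and 0.07, adjusted p = 0.667). In B-CKO it fell to D1 (-0.29 ± 0.10, adjusted p = 0.0354) and rose to D2 (0.28 ± 0.07, adjusted p = 0.0127). The first of these calls was lost without any 1 of 4 libraries (adjusted p of 0.0562 to 0.104) and with the replicate number as a block (adjusted p = 0.0756), and the second in a single fit of all libraries (adjusted p = 0.101). The ratio of Tlr1 to Tlr6 went from 23.0 ± 5.97 in CON D0 to 11.8 ± 2.33 in CON D2, and that of Tlr1 to Tlr2 from 23.8 ± 3.81 to 7.76 ± 0.915.

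**Figure D3:**
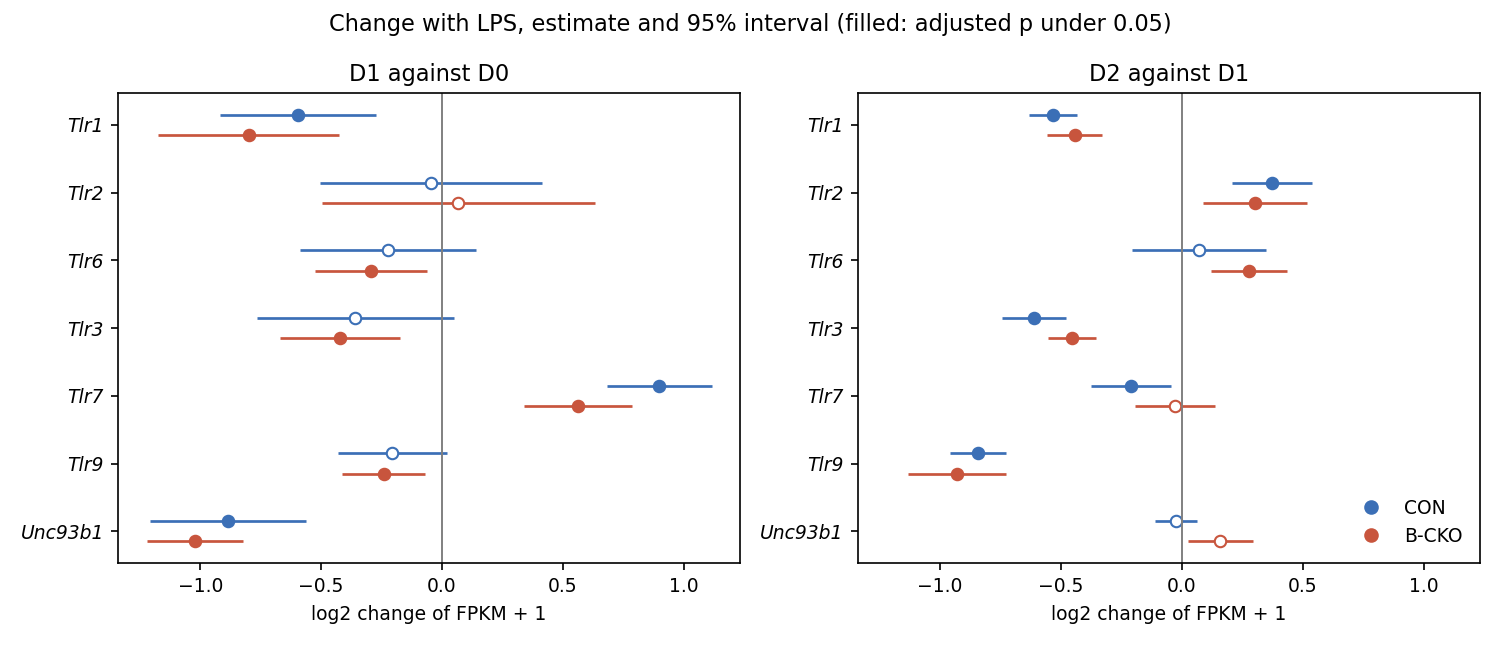
Log2 change of FPKM + 1 (horizontal axes) of each member from D0 to D1 (left) and from D1 to D2 (right), CON in blue and B-CKO in red, as estimates with 95% intervals from limma on 3 libraries a group; filled points have an adjusted p under 0.05. Tlr7 lies to the right on the first day (0.90 in CON) and Tlr9 to the left on the second (-0.84 in CON).

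Markers of B cell subsets and other cells moved over the same time. From D0 to D1 in CON, 6 of 7 marginal zone B cell markers fell and 1 rose, with summed levels of 371 to 428 FPKM at D0 and 160 to 178 at D1. All 3 follicular markers fell (995 to 1346 FPKM summed at D0 and 224 to 253 at D1), as did 9 of 9 T cell markers (25.1 to 33.4 and 13.2 to 15.6). Of 5 NK cell markers 4 fell (2.85 to 4.06 FPKM summed at D0 and 0.10 to 0.23 at D1). Of 5 plasma cell markers 2 rose and 3 fell (251 to 420 and 138 to 154), and of 5 B cell markers 3 fell (3386 to 4471 and 2016 to 2174). The summed myeloid markers were higher at D1 (18.8 to 25.0 and 43.3 to 47.1), most of it Mpeg1, a pore-forming protein gene, with 2 of 9 markers called higher and 3 lower. The sum of 7 dendritic cell markers was also higher at D1 (3.11 to 4.86 and 7.26 to 8.06), with 1 marker called higher and 3 lower. Of 4 erythroid markers tested 1 rose and 3 fell (10.9 to 30.2 FPKM summed at D0 and 8.23 to 10.02 at D1). From D1 to D2 in CON, 4 of 5 plasma cell markers rose and none fell, with summed levels of 194 to 316 FPKM at D2. Of 3 follicular markers 2 rose (292 to 309 FPKM summed at D2). The dendritic cell sum reached 24.3 to 29.5 FPKM, most of it Flt3, a receptor kinase gene at 25.2 by the mean, with 1 marker called higher and 2 lower. Of 7 marginal zone markers 1 rose and 2 fell (160 to 168 FPKM summed), of 9 T cell markers 1 rose and 2 fell (13.1 to 14.6), and of 9 myeloid markers 2 rose and 2 fell (38.8 to 42.25), while no NK cell or erythroid marker was called. Of the 5 B cell markers 2 rose and 1 fell (2098 to 2266 FPKM summed at D2). In B-CKO, 6 of 7 marginal zone, 3 of 3 follicular, 3 of 5 plasma cell, 4 of 5 B cell, 9 of 9 T cell, 5 of 5 NK cell, 4 of 9 myeloid, 4 of 7 dendritic cell and 2 of 5 erythroid markers fell from D0 to D1, and 1 marginal zone, 2 plasma cell, 2 myeloid and 1 dendritic cell marker rose. The B-CKO sums at D0 and D1 were 23.95 to 31.9 and 10.9 to 11.5 FPKM for T cell markers, 20.9 to 27.65 and 37.4 to 40.6 for myeloid markers and 9.0 to 52.75 and 7.51 to 12.7 for erythroid markers, the last of these overlapping. From D1 to D2 in B-CKO, 3 plasma cell markers rose and 1 fell, 2 follicular markers rose, 3 marginal zone markers rose and 2 fell, 3 of the 5 B cell markers rose and 1 fell, and 3 T cell markers fell. Of the myeloid and of the dendritic cell markers 2 rose and 2 fell each, and of the erythroid markers 1 rose and 1 fell. Their part in the changes of the TLR genes was not tested.

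Set against all genes, the culture changed a large share of the transcriptome. From D0 to D1, 1 of the 7 members rose and 2 fell in CON, where 26.7% of 15531 genes tested rose and 30.7% fell. In B-CKO 1 rose and 5 fell, beside 27.5% and 32.3% of all genes. From D1 to D2, 1 rose and 4 fell in CON (20.1% and 24.8% of all genes) and 2 rose and 3 fell in B-CKO (21.7% and 24%). Between D0 and D2, 1 rose and 4 fell in each genotype, beside 26.5% and 30.3% of genes in CON and 27% and 30.7% in B-CKO. The median log2 change of the members from D0 to D2 was -0.91 in CON and -0.86 in B-CKO, against -0.02 and -0.01 over all genes tested. The 2 genotypes share no library in these comparisons, but their same-numbered D0 libraries varied together (r of 0.85, 0.47 and 0.79). Changes from D0 are therefore not independent between the genotypes. Rescaling each library to a common sum (TPM) moved the median change of genes averaging 1 FPKM or more from 0.03 to -0.12 for CON D1 against D0 and turned 4147 higher and 4768 lower calls into 3564 and 5546. With that scaling Tlr9 was also called lower in CON at D1 (-0.37, adjusted p = 0.0125), and the rise of Tlr7 from D0 to D2 in B-CKO missed the threshold (0.34, adjusted p = 0.0573, against 0.54 and 0.00627 as deposited).

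Between the genotypes, no member passed the test at any time. At D0 all 7 had overlapping libraries, with differences between -0.21 (Tlr9, 95% interval -0.48 to 0.05) and 0.14 (Tlr7, -0.15 to 0.43). Same-numbered D0 libraries varied together, and within these pairs Tlr9 and Tlr2 were lower in B-CKO in 3 of 3 and Tlr7 higher in 3 of 3. The pairs of Tlr1, Tlr3, Tlr6 and Unc93b1 went both ways. The share of all genes with 3 of 3 pairs in the same direction was not counted, so these pairs are a description only. With the pairs as a block the limma adjusted p was 0.787 for Tlr9, 0.904 for Tlr2 and 0.867 for Tlr7. No gene of 15641 passed there (0% higher and 0% lower by limma, with 313 at an unadjusted p under 0.05, none of them a member), and 1.92% of genes had all B-CKO libraries above all CON libraries and 1.94% below. At D1, 4 of the 7 members had all B-CKO libraries below all CON libraries and none above, where 11.7% of 15104 genes lay below and 8.43% above. These were Tlr1, Tlr3, Tlr7 and Tlr9. Tlr1 was at 35.0, 33.9 and 32.9 FPKM in B-CKO and at 40.2, 38.1 and 39.5 in CON, a log2 difference of -0.21 (95% interval -0.29 to -0.13, adjusted p = 0.0786). Tlr9 differed by -0.25 (-0.35 to -0.15, adjusted p = 0.083), Tlr7 by -0.20 (adjusted p = 0.158) and Tlr3 by -0.17 (adjusted p = 0.173). Unc93b1 differed by -0.14 (adjusted p = 0.22), with overlapping libraries. The unadjusted p was under 0.05 for these 5 members, as for 2463 genes in all, and the median difference was -0.17 over the members and -0.0046 over all genes.

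The calls at D1 turned on the filter. With all genes tested, 15 passed, 0.0132% higher and 0.0861% lower. Among the 9711 genes averaging 1 FPKM or more, 388 passed, 0.947% higher and 3.05% lower, and 2 members were among the latter, Tlr9 (adjusted p = 0.0193) and Tlr1 (adjusted p = 0.0223). Tlr3 has a mean under 1 FPKM at D1 and was not tested there. At D2 only Tlr9 had non-overlapping libraries, at 14.4, 17.4 and 13.6 FPKM in B-CKO and 19.2, 20.1 and 18.4 in CON. Its difference was -0.33 (95% interval -0.54 to -0.12, adjusted p = 0.398). Of 15210 genes, 6.24% lay apart below and 4.89% above at D2, and 0.0394% were called lower and 0.00657% higher. Among genes averaging 1 FPKM or more, 0.172% were called lower and 0.122% higher, with no member among them. The other 6 members differed at D2 by -0.12 to 0.07.

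**Figure D4:**
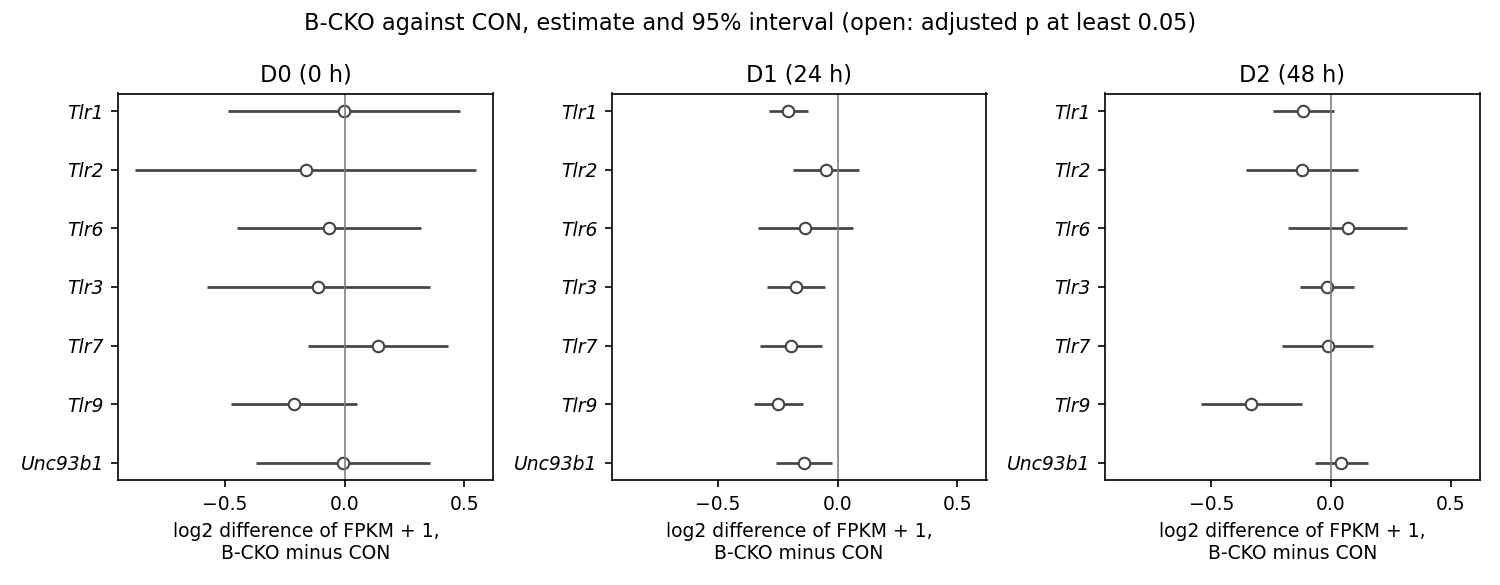
Log2 difference of FPKM + 1 between B-CKO and CON (horizontal axes) for each member at D0, D1 and D2, as estimates with 95% intervals from limma on 3 libraries a group; all points are open because no adjusted p is under 0.05. At D1 the intervals of Tlr1, Tlr3, Tlr7, Tlr9 and Unc93b1 lie below 0, and at D2 that of Tlr9 does.

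Summed marker levels also stood apart between genotypes at D1. The sum of 5 B cell markers was 1883 to 1943 FPKM in B-CKO and 2016 to 2174 in CON, and 3 of the 5 had all B-CKO libraries below all CON libraries. Of all 15104 genes tested at D1, 11.7% lay below in this way and 8.43% above. The sum of 3 follicular markers was 207 to 219 against 224 to 253, although each marker by itself overlapped. The summed level of 9 T cell markers was 10.9 to 11.5 FPKM in B-CKO and 13.2 to 15.6 in CON, most of it Lck, a kinase, while Cd3e was at 0.15 FPKM or less. The sum of 9 myeloid markers was 37.4 to 40.6 against 43.3 to 47.1, most of it Mpeg1, while Csf1r was at 0.03 or less. The sum of 7 dendritic cell markers was higher in B-CKO (9.89 to 10.4 against 7.26 to 8.06), mostly Flt3, with Clec9a at 0 in all these libraries. At D2 the T cell sum was 9.61 to 11.7 FPKM in B-CKO and 13.1 to 14.6 in CON, the myeloid sum 33.2 to 37.8 against 38.8 to 42.25, the dendritic cell sum 32.3 to 33.0 against 24.3 to 29.5 and the sum of 5 erythroid markers 11.55 to 16.3 against 9.67 to 9.93, mostly the globin gene Hbb-bt, while the sums of 5 B cell, 3 follicular, 7 marginal zone and 5 plasma cell markers overlapped. No marker in these sums was called over all genes tested. Among genes averaging 1 FPKM or more, the B cell markers Cd22 (-0.29, adjusted p = 0.0164) and Cd79a (-0.15, adjusted p = 0.0394), the marginal zone marker Dtx1 (-0.47, adjusted p = 0.018) and Lck (-0.39, adjusted p = 0.018) were called lower at D1 and Flt3 higher (0.41, adjusted p = 0.00558). Of all 9711 such genes, 3.05% were called lower and 0.947% higher at D1. At D2, Dtx1 (-0.37, adjusted p = 0.0411) and Lck (-0.42, adjusted p = 0.0423) were called lower there, beside 0.172% of 9857 genes. The part of these markers in the differences of the TLR genes was not tested.

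Whether the change with LPS itself differed by genotype was tested as an interaction. No member and no gene passed for D1 against D0, D2 against D1 or D2 against D0 (0% of all genes each, by limma, with 467, 1158 and 422 genes at an unadjusted p under 0.05). The largest difference was that of Tlr7 to D1, of -0.34 for B-CKO against CON (95% interval -0.62 to -0.05, unadjusted p = 0.0243, adjusted p = 1). From D1 to D2 the difference was 0.18 for Unc93b1 (unadjusted p = 0.0225) and 0.16 for Tlr3 (unadjusted p = 0.0461), at adjusted p of 0.621 and 0.673. The intervals for the other members all spanned 0, and those for the D0 to D1 change were wide, from -0.70 to 0.29 for Tlr1.

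The rest of the TLR system gives the context. Of 6 other receptors, Tlr4 stood at 1.79 ± 1.23 FPKM in CON D0 and 2.29 ± 0.0709 in CON D1, Tlr8, Tlr11 and Tlr13 were at 0.13 or less in all libraries, and Tlr5 had no matched row. Tlr12 fell to D1 in CON (-0.48, adjusted p = 0.00188) and rose to D2 (0.47, adjusted p = 0.000843). These are changes at low levels: the 5 receptors with a row, Tlr4 included, summed to means of 2.63 FPKM in CON D0 and 2.54 in CON D1. Of 5 accessory molecules, Cd36, a scavenger receptor that assists TLR2 with TLR6, rose to D1 in CON from 16.3 ± 3.03 to 92.7 ± 3.71 FPKM (2.45, adjusted p = 1.84e-05). Cd180, a TLR-like molecule of B cells, fell at both steps (-1.05 and -0.67, adjusted p = 0.000495 and 0.000141). Cd14 was near 0.

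Of 16 genes for folding, trafficking and processing of endosomal TLRs, 15 were tested, and 2 rose and 9 fell to D1 in CON (median -0.71) while 10 rose and 4 fell from D1 to D2 (median 0.21), against 26.7% and 30.7% of all genes on the first day and 20.1% and 24.8% on the second. Slc15a4, an endolysosomal transporter needed for TLR7 and TLR9 signalling, fell to D1 from 56.5 ± 8.65 to 16.8 ± 1.22 FPKM (-1.68, adjusted p = 6.81e-05), as did the protease gene Ctsl (-1.29, adjusted p = 0.000525). Lrrc59, a partner of UNC93B1 in the endoplasmic reticulum, rose (1.47, adjusted p = 0.000167). From D1 to D2, the protease gene Lgmn (0.61, adjusted p = 0.00132) and the chaperone gene Hsp90b1 (0.49, adjusted p = 0.00624) rose and Slc15a3 fell (-0.63, adjusted p = 0.000644). Over all genes tested, no gene of this list was called between genotypes. Among genes averaging 1 FPKM or more, 3 of 14 were called lower in B-CKO at D1 and none higher, beside 3.05% and 0.947% of all such genes: Pld4, an endolysosomal exonuclease gene (-0.32, adjusted p = 0.00591), Cnpy4 (-0.36, adjusted p = 0.0203) and Slc15a3 (-0.35, adjusted p = 0.0228).

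Of 22 adaptors and kinases, 4 rose and 10 fell to D1 in CON (median -0.23), and 3 rose and 12 fell from D1 to D2 (median -0.13). The medians over all genes tested were -0.02 and -0.0047. Of all genes, 26.7% rose and 30.7% fell to D1 in CON, and 20.1% rose and 24.8% fell from D1 to D2. The TRIF pathway adaptors Ticam2 (1.59, adjusted p = 0.000511) and Ticam1 (1.28, adjusted p = 0.000907) and the ubiquitin-conjugating enzyme gene Ube2n (1.37, adjusted p = 2.93e-05) had the largest changes to D1. Ticam2 rose again to D2 (0.73, adjusted p = 0.000135), where Traf3 and Irak1 fell (-0.57 and -0.42, adjusted p = 0.000123 and 0.000173). Of 4 interferon regulatory factors, 1 rose and 0 fell to D1 in CON, beside the same shares of all genes. From D1 to D2, 1 rose and 3 fell. Irf7, which acts downstream of TLR7 and TLR9, rose to D1 (1.05, adjusted p = 0.000302) and fell back to D2 (-1.08, adjusted p = 0.000155). Irf3 and Irf5 also fell to D2 (-0.44 and -0.24, adjusted p = 0.000244 and 0.00249). Irf7 was at 45.2 ± 3.00 FPKM in CON D1 and 30.5 ± 2.12 in B-CKO D1, a difference of -0.55 that did not pass the test (adjusted p = 0.0554). Over all genes tested, none of the lists of other receptors, accessory molecules, trafficking genes, adaptors and interferon regulatory factors had a call between genotypes at D0, D1 or D2. Among genes averaging 1 FPKM or more, Irf7 (adjusted p = 0.00271) and Irf8 (-0.24, adjusted p = 0.0193) were called lower in B-CKO at D1, as were 1 of 21 adaptors and kinases, Ikbke (-0.25, adjusted p = 0.0444), and the accessory gene Ly86 (-0.16, adjusted p = 0.0452), while Cd36 was called higher (0.31, adjusted p = 0.0223). Of all such genes 3.05% were called lower and 0.947% higher at D1, so 1 of 21 is near the background. At D0 and D2 these lists had no call there either.

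Across the 18 libraries, which share genotype and time structure, the genes whose log2 levels followed each member most closely were counted as a description. For Unc93b1 the closest was Rasal3 (Pearson's r = 0.989), followed by Map3k14 and Zfp36l1, and 1610 of 9996 genes reached an r of at least 0.9. For Tlr1 it was Ap1b1 (r = 0.988, with 853 such genes), followed by Gimap8 and Sfi1. For Tlr9 it was Pitpnm2 (r = 0.982, with 185), followed by Shank1 and Dph5. For Tlr7 it was Dhx58, which encodes an RNA helicase of the RIG-I family (r = 0.97, with 1276), followed by Crls1 and Ly6a. For Tlr3 it was R3hdm4 (r = 0.973), followed by Ivd and Mettl17. Tlr2 (Nxpe3, r = 0.914) and Tlr6 (Tmem140, r = 0.843) had 2 and 0 genes at an r of 0.9 or more.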

How the data were processed

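Splenic B cells were profiled by RNA-seq in 18 libraries. The authors mapped 150-base paired reads to mm10 with Bowtie2 and used Cufflinks and RSEM. The values they deposited are FPKM to 2 decimals, for 16545 NCBI gene IDs; the submitters' processing notes also list BWA and DESeq2, and versions and annotation are not given in the sources used here. FPKM are divided by transcript length and library size, so a few very abundant transcripts can shift all others. Of the gene IDs, 16512 were matched to RefSeq symbols (GRCm38.p6) and 33 were kept under their IDs.

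Here log2(FPKM + 1) was tested with limma 3.58.1 in R 4.3.3 (lmFit, eBayes with a trend, two-sided) on the libraries of the groups compared, 6 for pairwise and 12 for interaction contrasts, over genes above 0 FPKM in any of them. FPKM are not counts, so DESeq2, which the authors used, was not run. P-values were adjusted by Benjamini-Hochberg over all genes, with 0.05 as the threshold. The exact permutation test of 3 against 3 libraries was not used because it cannot pass that threshold. Alternatives were a pseudocount of 0.1, a filter on genes averaging under 1 FPKM, TPM or median-ratio scaling, a block for the replicate number, 1 joint fit of the 18 libraries, group weights and leaving out libraries. The fits were tested on simulated data, of which no result is reported here. Replicates are numbered alike in all groups. Deviations of same-numbered libraries correlated at 0.85, 0.47 and 0.79 between genotypes at D0 and at 0.13, 0.18 and 0.12 between B-CKO D2 and D1. They were not all over 0.1 in the other comparisons, so the block was read as paired in those 2 only. Elsewhere, as for B-CKO D1 against D0 (0.05, 0.06 and 0.04), values with the block are given as an alternative setting and not as a paired test.

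All 7 members are named. Of 5 context lists, the 3 genes with the largest called change in CON at each step are named, and any called between genotypes, and for each member the 3 genes with the highest Pearson correlation; receptors and markers at or near 0 are named for their level. Members, lists and motifs were chosen with earlier results of these data known. Figures were drawn with matplotlib 3.10.9. Results for 1 gene are not reported here.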

Additional observations from a re-analysis of the deposited data

How the results depend on the processing

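The counts of members called stayed within 1.5 times under the settings tried, with 3 exceptions. Among genes averaging 1 FPKM or more, 2 members passed for B-CKO D1 against CON D1, where 0 did over all genes; fewer genes were then tested. A single fit of all 18 libraries, which gives the D1 and D2 groups the same spread as the more variable D0 groups, called 3 members rather than 5 for D2 against D1, in CON and in B-CKO alike. Leaving out 1 library at a time gave 0 for each genotype and interaction count, 3 to 4 (CON) and 4 to 7 (B-CKO) for D1 against D0, 4 to 5 in both genotypes for D2 against D1 and 5 to 6 in both for D2 against D0. With the replicate number as a block the counts were 5 rather than 6 for B-CKO D1 against D0 (Tlr6, limma adjusted p = 0.0756) and 4 rather than 5 for B-CKO D2 against D1 (Tlr2, adjusted p = 0.0646), and no other call of a member changed. Leaving out 1 library at a time gave 630 single values, of which 563 kept their call and direction, 16 lost the call, 6 gained it and 45 changed sign. With a pseudocount of 0.1 rather than 1, 84 of 84 kept both.

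None of the differences that changed sign was called with all libraries. Scaled by the median ratio, B-CKO against CON at D0 was 0.0132 for Tlr1 and 0.0101 for Unc93b1, and B-CKO D2 against D0 was 0.0175 for Tlr6. Rescaled to TPM, B-CKO D1 against D0 was -0.043 for Tlr2. Without replicate 1 of each D0 group, chosen after seeing the data, Tlr3 was 0.00232 for the genotypes at D0 and -0.0189 for the genotype difference in the D2 against D0 change, Tlr2 was 0.17 for CON D1 against D0, and Tlr6 was 0.054 for B-CKO D2 against D0. The causes were not tested.

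Leaving out 1 library at a time, B-CKO against CON at D0 ranged from -0.19 to 0.15 for Tlr1, -0.43 to 0.0524 for Tlr2, -0.19 to 0.0274 for Tlr6, -0.23 to 0.0804 for Tlr3 and -0.15 to 0.0949 for Unc93b1. At D2 it ranged from -0.0623 to 0.0246 for Tlr3 and -0.0672 to 0.0598 for Tlr7. D1 against D0 ranged for Tlr2 from -0.16 to 0.17 in CON and -0.10 to 0.34 in B-CKO. D2 against D1 ranged in CON from -0.0278 to 0.14 for Tlr6 and -0.0516 to 0.00567 for Unc93b1, and in B-CKO from -0.0807 to 0.0463 for Tlr7. D2 against D0 in B-CKO ranged from -0.0779 to 0.054 for Tlr6. The genotype difference in the D1 against D0 change ranged from -0.10 to 0.38 for Tlr2, -0.16 to 0.0595 for Tlr6, -0.25 to 0.0614 for Tlr3, -0.12 to 0.0371 for Tlr9 and -0.24 to 0.0122 for Unc93b1, and that in the D2 against D0 change from -0.27 to 0.0692 for Tlr1, -0.17 to 0.31 for Tlr2, -0.10 to 0.22 for Tlr3 and -0.0531 to 0.20 for Unc93b1.

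Over all genes, calls between genotypes depended on the settings. At D0, 0 genes passed, and 2 of 9979 did among those averaging 1 FPKM or more. At D1, 15 genes passed, 388 among those averaging 1 FPKM or more and 5 with the replicate block. At D2, 7 passed, 29 among those averaging 1 FPKM or more and 3 with the block. Absolute depth is unknown, so low values such as those of Tlr3 carry no counting interval.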
